A study of Mus with 2 samples.

Results

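The RNA of 5 aquaporins, Aqp1, Aqp2, Aqp3, Aqp4 and Aqp11, was followed across the cell classes of the newborn mouse kidney. The members were the genes with these symbols, and each symbol named 1 of the 28693 genes in the count tables. A further 7 aquaporin symbols in the same tables (Mip, Aqp5, Aqp6, Aqp7, Aqp8, Aqp9 and Aqp12) served as comparison. The data were 2 single-cell libraries from P0 kidney, made with the 10x Chromium system, which tags the 3′ ends of transcripts and counts each captured molecule once by its unique molecular identifier (UMI). Both libraries carry the mutant genotype Rbpj c/- ; Foxd1cre/+, in which a flox allele of Rbpj, the transcription factor that relays Notch receptor signals, is deleted by Foxd1Cre in the interstitium, the stromal compartment of the kidney. The label gives the other Rbpj allele as a minus, which all cell classes carry and not the stroma alone. The study also names control kidneys (Rbpj c/+ ; Foxd1cre/+), which were not analysed here, so every value below is a level in mutant kidneys and none is an effect of genotype. The labels do not say whether a library holds 1 animal or a pool, or that the libraries come from separate animals, so p-values measure only the spread between these samples, which may be technical.

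Aquaporins are membrane channels that pass water, and some of them also pass glycerol. In the adult kidney AQP1 is the constitutive water channel of the proximal tubule, the thin descending limb and the descending vasa recta, and AQP2 is the vasopressin-regulated channel of the apical membrane of collecting duct principal cells, where AQP3 and AQP4 form the basolateral exit. AQP11 lies inside proximal tubule cells, in the endoplasmic reticulum, and mice without it develop cystic kidneys.

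In the RefSeq annotation of GRCm38, the assembly that matches the mm10 build named in the submitters' processing notes, Aqp1 (ENSMUSG00000004655) lies at chr6:55336299-55348555, Aqp2 (ENSMUSG00000023013) at chr15:99579056-99584545, Aqp3 (ENSMUSG00000028435) at chr4:41092724-41098183 and Aqp11 (ENSMUSG00000042797) at chr7:97726379-97738247. Aqp4 is ENSMUSG00000024411. Aqp2 has Aqp5 as its neighbour at a distance of 6482 bases, and Aqp6 follows Aqp5 after 3638 bases, with 0 genes between either pair. Aqp3 and Aqp7 are 44486 bases apart with 1 gene between them.

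The libraries held 163405630 and 135436576 UMIs (replicates 1 and 2), of which 83.8% and 82.0% were in barcodes with at least 2000 UMIs. After removal of barcodes with over 10% mitochondrial UMIs and of predicted doublets, 5910 and 4937 cells remained, and 8 barcode sequences occurred in both libraries among the 6910 and 5917 barcodes of at least 2000 UMIs. Cell classes were gated by marker genes that include no aquaporin, which placed 74.6% and 76.7% of cells. Class names rest on those markers alone. The classes that reached 20 cells in both libraries were nephron progenitor, early nephron, podocyte, proximal tubule, loop of Henle, ureteric tip, collecting duct, endothelial, mural, stroma, immune and erythroid. Of the 6 loop of Henle markers, Egf and Tmem207 were found in 7.2% and 2.4% of its cells, and Slc5a2 was found in 8.6% of proximal tubule cells. Rbpj RNA read 28.3 and 25.7 CPM (counts per 1000000 UMIs of a class) in stroma, where Foxd1Cre acts, and 32.8 to 165 CPM in the 10 other classes outside the erythroid gate, which had 0 and 1 UMIs. The labels do not give the deleted exons, so 3′ UMIs do not check the deletion.

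Each class was summed within a library, and levels are counts per 1000000 UMIs of the class (CPM). A UMI stands for a molecule whatever the transcript's length, so no length scaling was applied. Differences between classes were fitted over all 15039 genes tested, and all 5 members passed the filter on low counts. They are log2 fold changes from the quasi-likelihood test of edgeR, p-values being adjusted by Benjamini-Hochberg, with library as a block, and are called at an adjusted p under 0.05. A gene that is high in a single class can pass the filter through that class alone. A class set against the mean of the 11 other classes is compared with their mean on the log scale, where a class with few UMIs weighs as much as one with many. Such a fold can be positive where the CPM of a class is below the arithmetic mean of the others, and the members called in such a case are given with both values. For 936 to 2314 genes, depending on the class, the test against the other classes could not be fitted (standard error infinite or over 1000), and they count as tested and not called.

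**Figure D1:**
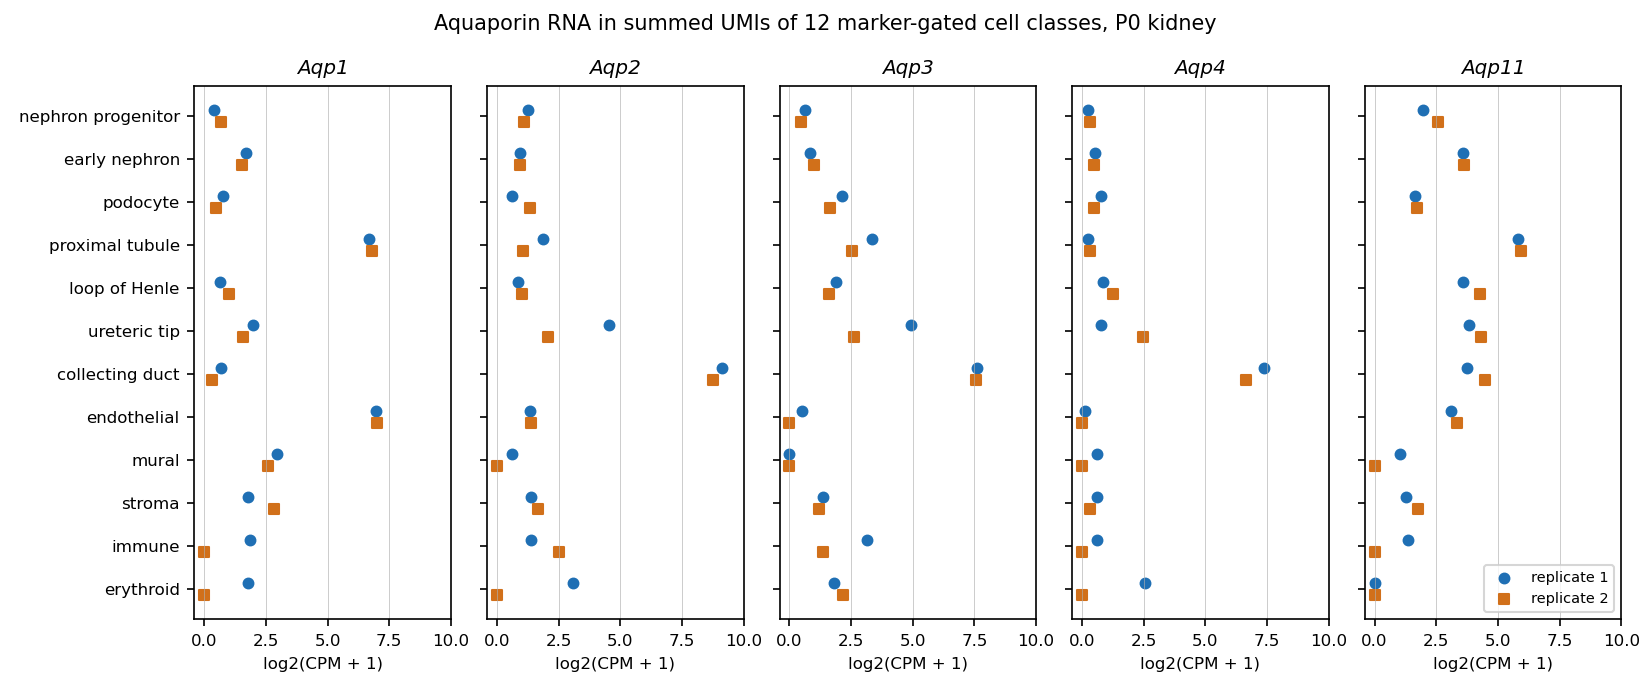
Level of each aquaporin, log2(CPM + 1), in the summed UMIs of 12 gated cell classes (rows), with circles for replicate 1 and squares for replicate 2. Aqp2, Aqp3 and Aqp4 are highest in the collecting duct, Aqp1 in the endothelium and proximal tubule, and Aqp11 in the proximal tubule.

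Among the fitted classes, RNA of the vasopressin-regulated channel and of its basolateral partners was highest in the collecting duct. Aqp2, the apical channel, read 565 CPM in the collecting duct of replicate 1 (95% exact Poisson interval 544 to 587, counting error only) and 432 CPM in replicate 2 (413 to 452). The next class, the ureteric tip, read 22.4 and 3.22 CPM, and every other fitted class read 7.39 CPM or less, so the collecting duct was apart from all of them in both libraries. Aqp3, a basolateral channel that also passes glycerol, read 196 and 190 CPM in the collecting duct against 29.7 and 5.15 CPM in the ureteric tip and 9.08 and 4.79 CPM in the proximal tubule. Aqp4, the other basolateral channel, read 166 and 99.997 CPM in the collecting duct and at most 4.93 CPM in any other fitted class. For all 3 genes the libraries of the collecting duct lay above both libraries of each of the 11 other classes.

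Against the mean of the other classes, 4 of the 5 members were called higher in the collecting duct, where 27.4% of all genes tested were called higher, and 1 was called lower, against 7.84% of all genes. Aqp2 was higher by a log2 fold change of 7.89 ± 0.13 (SE, adjusted p = 1.21e-23), Aqp4 by 7.81 ± 0.19 (1.56e-20) and Aqp3 by 6.82 ± 0.17 (1.25e-19). In fits of a single library, which give no test, Aqp2 was 7.96 in replicate 1 and 9.09 in replicate 2, Aqp4 was 7.97 and 9.14, and Aqp3 was 6.53 and 7.52. Aqp11, the intracellular aquaporin, was also higher, by 2.36 ± 0.33 (adjusted p = 3.16e-06), at 12.6 and 21.02 CPM, with folds of 1.99 in replicate 1 and 3.51 in replicate 2 alone. Aqp1 was lower by 3.25 on the log2 scale (SE 0.73, adjusted p = 0.000930), at 0.610 and 0.231 CPM from 3 and 1 UMIs. The Aqp1 call was lost without doublet removal (adjusted p = 0.102), and its test could not be fitted without cells over 50000 UMIs or at a mitochondrial limit of 20%.

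The ureteric tip is the branching end of the same epithelium, where the collecting system grows. Between the collecting duct and the tip, 3 of the 5 members were called higher in the collecting duct (16.6% of all genes tested were). Aqp4 differed by 6.05 ± 0.39 (adjusted p = 3.43e-11), Aqp2 by 5.16 ± 0.23 (1.12e-13) and Aqp3 by 3.39 ± 0.24 (5.08e-10). The single-library folds were unequal: 4.66 in replicate 1 and 7.12 in replicate 2 for Aqp2, 2.73 and 5.26 for Aqp3, and 7.82 and 4.53 for Aqp4. Aqp11 was 12.6 and 21.02 CPM in the collecting duct and 13.0 and 18.7 CPM in the tip. These ranges overlapped, and the difference of 0.15 ± 0.26 was not called (adjusted p = 0.734). Aqp1 differed by -2.46 ± 0.93 and was not called (adjusted p = 0.0518), and it was called in 5 of the alternative settings, with adjusted p from 0.0106 to 0.0401. The tip gate read 2262 and 2793 CPM of the summed collecting duct markers, which include Calb1 and Gata3, against 2073 and 2100 CPM in the collecting duct itself. The gates were apart on the tip markers, at 1054 and 1158 CPM in the tip and 63.8 and 57.3 CPM in the collecting duct.

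Within the tip, Aqp2 RNA was found in 7 and 5 of 48 cells, Aqp3 RNA in 14 and 7, and Aqp11 RNA in 22 and 17. Against the mean of the other classes, 3 members were called higher there (21.9% of all genes tested were): Aqp3 by 3.13 ± 0.40 (adjusted p = 1.72e-06), Aqp2 by 2.26 ± 0.38 (4.52e-05) and Aqp11 by 2.20 ± 0.43 (0.000341). The folds of single libraries were 3.55 in replicate 1 and 1.78 in replicate 2 for Aqp3, 2.88 and 1.32 for Aqp2 and 2.04 and 3.26 for Aqp11. On the arithmetic scale the tip was below the mean of the other classes for Aqp2 (12.8 against 46.8 CPM), while for Aqp3 it was above that mean in replicate 1 (29.7 against 20.4 CPM) and below it in replicate 2 (5.15 against 18.8 CPM). In replicate 1 a single tip cell held 27 of the 62 Aqp2 UMIs, and 1 cell held 33 of the 82 Aqp3 UMIs. Replicate 2 had 5 and 8 UMIs of these genes in 48 cells. Without cells over 50000 UMIs the calls of Aqp2 (0.17, adjusted p = 1) and Aqp3 (1.30, adjusted p = 0.209) were lost, and Aqp4 was called at 2.77 (adjusted p = 0.0163), from 1.21 ± 0.66 and an adjusted p of 0.185 with all cells.

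By cell, 70.1% and 67.9% of collecting duct cells had an Aqp2 UMI, 73.5% and 65.1% an Aqp3 UMI and 53.8% and 46.2% an Aqp4 UMI. In the early nephron, a class of similar depth (median 20297 and 19396 UMIs per cell, against 18533 and 24045 in the collecting duct), the Aqp2 share was 3.40% and 2.81%, the Aqp3 share 2.33% and 2.46% and the Aqp4 share 1.07% and 1.05%. After each cell was thinned to 5000 UMIs, the collecting duct shares were 58.6% and 53.9% for Aqp2, 50.9% and 40.2% for Aqp3 and 38.8% and 28.4% for Aqp4, with 1 and 4 cells too shallow to enter. Of the cells with Aqp2, 86.6% and 90.3% also had Aqp3, and 64.6% and 63.9% had Aqp4. All 3 genes were found together in 42.7% (95% exact binomial interval 33.6 to 52.2) and 38.7% (29.4 to 48.6) of collecting duct cells, and none of the 3 in 14.5% and 26.4%. The upper 10% of cells by Aqp2 held 50.6% and 45.3% of its collecting duct UMIs.

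**Figure D2:**
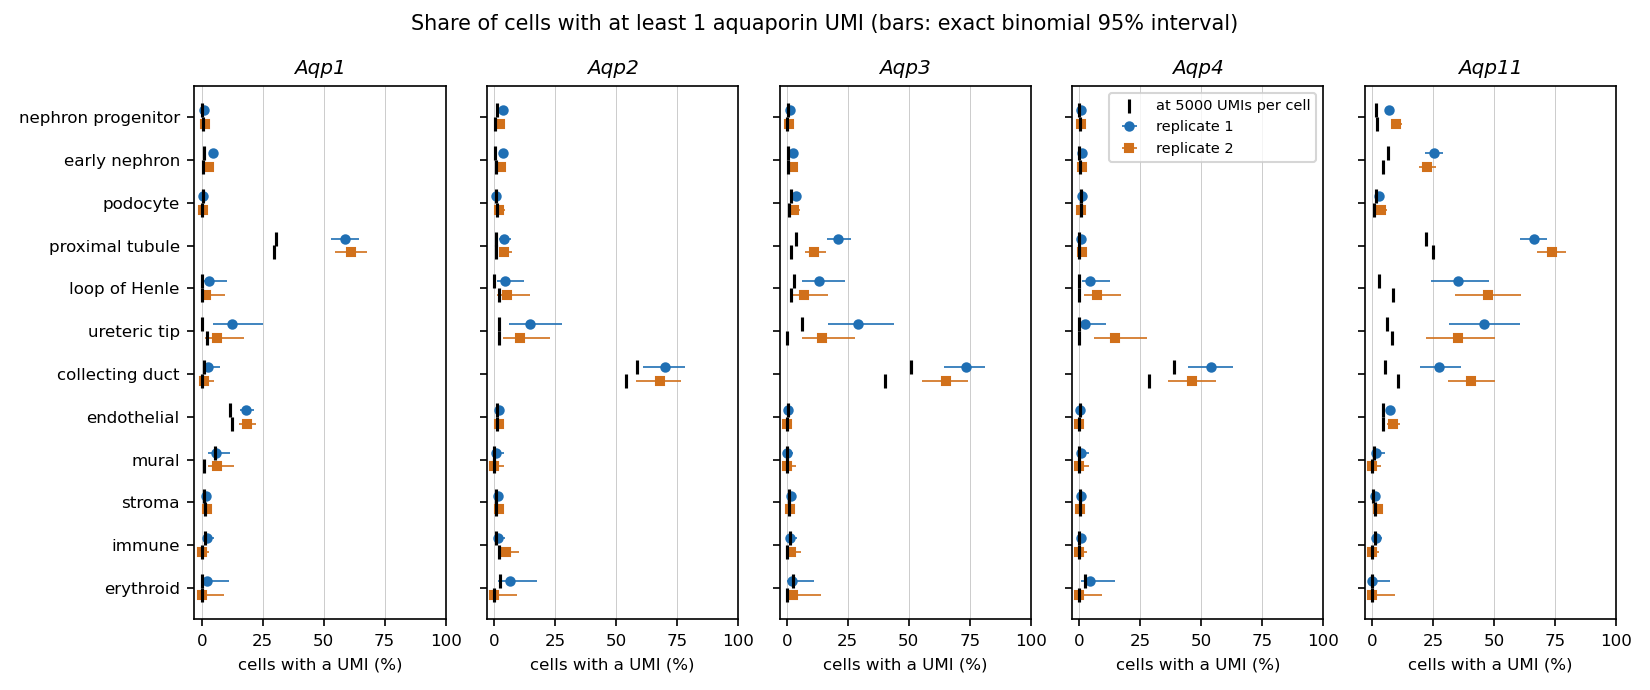
Percentage of cells with at least 1 UMI of each aquaporin in 12 gated classes (rows), with exact binomial 95% intervals for each library; black ticks give the share after each cell was thinned to 5000 UMIs. The shares of Aqp2, Aqp3 and Aqp4 are highest in the collecting duct, while Aqp1 is in 58.9% and 61.4% of proximal tubule cells and in 18.3% and 18.4% of endothelial cells.

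Aqp4 separated cells inside the collecting duct gate that shared Aqp2 and Aqp3. Cells were also clustered on other genes, with the aquaporins left out, and the gate fell mainly into cluster 15 (92 and 84 cells) and cluster 21 (20 and 19 cells). In cluster 15 Aqp4 read 217 and 135 CPM, and in cluster 21 it had 0 UMIs in replicate 1, which allows up to 3.95 CPM (upper 95% Poisson bound), and 2 UMIs in replicate 2 (1.85 CPM, 0.22 to 6.69). Aqp3 moved the other way, with 192 and 125 CPM in cluster 15 and 257 and 391 CPM in cluster 21. Aqp2 read 702 and 455 CPM in cluster 15 and 152 and 382 CPM in cluster 21. For each gene the ranges of the clusters did not overlap. No test was run, since the clusters were chosen after the data were seen. Aqp2 and Aqp4 were found together in 57.6% and 52.4% of the gate's cells in cluster 15 and in 0 of 20 and 2 of 19 in cluster 21.

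Other genes differed along the same split. Avpr2, the vasopressin V2 receptor, read 46.1 and 28.7 CPM in the collecting duct cells of cluster 15 and 3.21 and 2.78 CPM in those of cluster 21. Fxyd4, a regulator of the sodium pump in the collecting duct, read 1340 and 1315 CPM against 41.8 and 105 CPM. S100g, which encodes the calcium-binding protein calbindin-D9k, went the opposite way at 342 and 493 CPM against 4473 and 4913 CPM. The sums of the 8 collecting duct markers overlapped, at 2046 and 2041 CPM in cluster 15 and 1886 and 2205 CPM in cluster 21. Calb1, 1 of these markers, was higher in cluster 21, at 1022 and 943 CPM against 549 and 677 CPM. The overlap of the sums therefore does not show that the other markers were alike. Scnn1a, which is not in that list, was lower in cluster 21, at 27.8 and 12.05 CPM against 126 and 47.8 CPM. Calb1 and Scnn1a were picked here after their values were seen. Of 7 marker lists of other classes, 3 were higher in the cells of cluster 21 in both libraries: proximal tubule at 161 and 153 CPM against 33.6 and 22.5 CPM, distal tubule at 132 and 179 CPM against 69.0 and 78.1 CPM, and endothelium at 52.5 and 37.99 CPM against 25.04 and 35.3 CPM. The other lists overlapped, those of the loop of Henle at 11.8 and 139 CPM against 12.8 and 20.6 CPM, of the thin descending limb at 2.14 and 17.6 CPM against 10.4 and 7.18 CPM, of intercalated cells at 70.7 and 131 CPM against 117 and 79.0 CPM and of the urothelium at 16.1 and 18.5 CPM against 39.4 and 6.25 CPM. Their part in the split was not tested. Cluster 21 as a whole (214 and 202 cells) was led by Slc12a1, the cotransporter of the thick ascending limb, and held 63 and 53 cells of the loop of Henle gate. In those loop cells Aqp2 read 0.884 and 1.10 CPM. Cluster 15 as a whole (100 and 89 cells) was led by Fxyd4, Sprr2f, Spink8, Plet1 and Crisp1, and Upk3a, a uroplakin gene of urothelium, and Psca were in its first 10. Fxyd4 and S100g are thus leading genes of the clusters compared, and S100g was chosen after its values were seen.

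A gate for intercalated cells, the acid- and base-secreting cells of the collecting duct, held 24 and 7 cells, too few for the fit. It read 536 and 752 CPM of Aqp2, 526 and 901 CPM of Aqp3 and only 18.4 and 8.24 CPM of Aqp4, and 21 and 6 of its cells lay in cluster 21. In those 27 cells Aqp4 had 1 and 0 UMIs. A single cell outside cluster 21 held 28 of the 30 Aqp4 UMIs of replicate 1. The marker levels of the gate went partly against the name, with 2592 and 2496 CPM of collecting duct markers beside 1560 and 2032 CPM of intercalated markers. Foxi1, the intercalated transcription factor, read 223 and 276 CPM, Slc26a4, the pendrin gene of base-secreting cells, read 44.7 and 0 CPM, and S100g read 7435 and 11196 CPM. The gate's cells were deep, with a median of 87523 and 86144 UMIs. At a mitochondrial limit of 20% the gate held 53 and 41 cells, and Slc26a4 read 44.0 and 78.8 CPM. Collecting duct markers then read 2508 and 1987 CPM and intercalated markers 2017 and 2571 CPM, so the intercalated list was the higher in replicate 2. The collecting duct and intercalated gates were 2.39% and 2.29% of all kept cells and held 89.3% and 91.7% of Aqp2 UMIs, 80.6% and 86.3% of Aqp3 UMIs and 90.9% and 87.9% of Aqp4 UMIs.

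**Figure D3:**
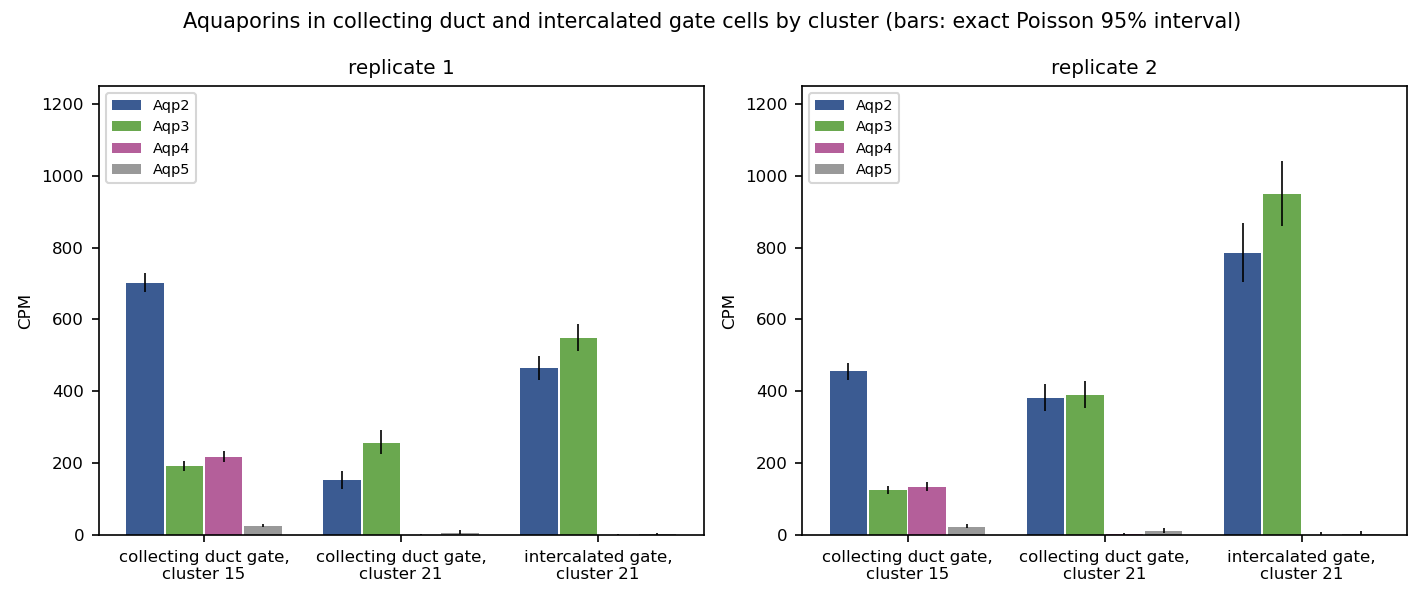
Aqp2, Aqp3, Aqp4 and Aqp5 (CPM, bars from 0 with exact Poisson 95% intervals) in collecting duct gate cells of clusters 15 and 21 and in intercalated gate cells of cluster 21, 1 panel per replicate. Aqp4 reads 217 and 135 CPM in cluster 15 and is near 0 in both sets of cluster 21 cells, which keep Aqp2 and Aqp3.

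The mitochondrial limit took a larger share of the UMIs of each aquaporin than of all UMIs. Barcodes over 10% mitochondrial UMIs held 17.0% and 43.8% of the Aqp2 UMIs in barcodes of at least 2000 UMIs, 21.02% and 51.9% of Aqp4, 30.6% and 47.8% of Aqp3, 16.5% and 24.8% of Aqp1 and 18.02% and 28.6% of Aqp11, against 7.96% and 12.7% of all UMIs. They were 36.4% of the barcodes in the collecting duct gate, 70.1% in the intercalated gate and 89.4% in the distal tubule gate, against 1.27% in nephron progenitors. With a limit of 20%, a setting chosen after the data were seen, the collecting duct had 162 and 168 cells, and Aqp2 read 549 and 559 CPM, Aqp3 214 and 226 CPM and Aqp4 176 and 161 CPM.

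Only the 20% limit left enough distal tubule cells for a comparison (21 and 30, against 3 and 4 at 10%). The distal tubule gate then read 5.06 and 1.93 CPM of Aqp2, 17.7 and 20.3 CPM of Aqp3 and 1.27 and 0.967 CPM of Aqp4. Against it, 3 of 5 members were called higher in the collecting duct (18.7% of all genes tested were): Aqp2 by 7.49 ± 0.42 (adjusted p = 2.42e-13), Aqp4 by 7.33 ± 0.42 (3.52e-13) and Aqp3 by 3.62 ± 0.33 (3.59e-09). Aqp11 (-0.23 ± 0.33, adjusted p = 0.672) and Aqp1 (4.55 ± 4.46, adjusted p = 0.501) were not called. Aqp1 had 0 distal tubule UMIs in either library.

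Urothelium lines the pelvis and uses AQP3. Its gate kept only 2 and 1 cells, which read 392 and 318 CPM of Aqp3 and had 0 UMIs of Aqp1, Aqp2 and Aqp4. Doublet removal took 16 of the 21 barcodes of this gate. With them kept, the gate had 14 and 5 cells and read 407 and 372 CPM of Aqp3. These cells were not tested.

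Genes of the vasopressin response and of principal cell transport were followed as a list of 20, all of which were tested. Against the mean of the other classes 15 were called higher in the collecting duct (27.4% of all genes tested were) and 2 lower (7.84% were), with a median log2 fold change of 2.82 against 0.25 over all genes tested. The largest were Fxyd4 (8.85, at 1033 and 999 CPM), Avpr2 (7.36, at 35.8 and 21.9 CPM), Mal, an apical sorting proteolipid (5.56, at 650 and 646 CPM), and the transcription factors Grhl2 (5.05, at 39.6 and 39.3 CPM) and Gata2 (4.84, at 86.2 and 54.5 CPM). The members called lower were Gnas, the stimulatory G protein subunit (-0.27), and Prkacb, a catalytic subunit of protein kinase A (-0.38), and those not called were Adcy3, Creb1 and Prkaca. Kcnj1, the ROMK potassium channel, was called higher by 1.23 although its 1.02 and 6.70 CPM were below the arithmetic mean of the other classes (14.7 and 18.4 CPM). In the loop of Henle 11 of the same 20 genes were called higher than in the mean of the other classes (25% of all genes tested were) and 5 lower (9.48% were), with a median of 1.29, and in the ureteric tip 9 higher (21.9% were) and 4 lower (9.76% were), with a median of 0.94. Gnas, Prkacb and Kcnj1 were named after their values were seen. Against the ureteric tip 12 were called higher (16.6% of all genes tested were) and 1, Prkacb, lower (-0.43; 11.5% of all genes were), with a median of 1.499 against 0.09 over all genes tested. Avpr2 was higher there by 3.75 ± 0.42 (adjusted p = 7.84e-07), at 35.8 and 21.9 CPM against 2.89 and 1.29 CPM, while Grhl2 (-0.12 ± 0.23) was not called.

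Aqp1, the constitutive water channel, was highest among the fitted classes in the endothelium and the proximal tubule. It read 101 and 111 CPM in the proximal tubule and 122 and 128 CPM in the endothelium. These ranges did not overlap, and the next class, the mural cells, read 6.70 and 4.95 CPM. From mural cells down to the collecting duct, neighbours in the order were not apart in both libraries. The proximal tubule and endothelial gates were 17.5% and 14.6% of kept cells and held 90.4% and 87.5% of Aqp1 UMIs. The proximal tubule read 29.5 and 29.8 CPM of the summed endothelial markers, against 5623 and 5139 CPM in the endothelium. The endothelium read 18.2 and 20.98 CPM of the proximal tubule markers, against 4582 and 4799 CPM in the proximal tubule.

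In the proximal tubule, 3 members were called higher than in the mean of the other classes (31.9% of all genes tested were) and 1 lower (12% were). Aqp1 was higher by 5.49 ± 0.13 (adjusted p = 7.21e-21) and Aqp11 by 4.49 ± 0.16 (6.19e-17). The single-library folds were 5.33 in replicate 1 and 7.05 in replicate 2 for Aqp1 and 4.52 and 5.37 for Aqp11. Aqp3 was called higher by 1.74 ± 0.38 (adjusted p = 0.000489) while its arithmetic level was lower (6.93 against 20.6 CPM), and the call was lost when clusters replaced gates (1.21, adjusted p = 0.0746). Aqp4 was called lower by a log2 fold change of -2.13 ± 0.76 (adjusted p = 0.0242), from 2 UMIs in each library. That call was lost with the erythroid class left out (adjusted p = 0.0669), its test could not be fitted in 4 other settings, and the fold from replicate 2 alone was -0.05. Aqp2 was not called (-0.70 ± 0.46, adjusted p = 0.261).

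The early nephron class holds the renal vesicle and later stages that precede segments. It read 2.23 and 1.88 CPM of Aqp1 and 10.9 and 11.4 CPM of Aqp11, below both proximal tubule libraries for each gene. Against it, 4 of 5 members were called higher in the proximal tubule (30.8% of all genes tested were): Aqp1 by 5.84 ± 0.19 (adjusted p = 6.76e-18), Aqp3 by 3.17 ± 0.39 (2.79e-07), Aqp11 by 2.54 ± 0.14 (4.17e-13) and Aqp2 by 1.23 ± 0.50 (0.0409). For Aqp3 the folds of single libraries were 3.65 in replicate 1 and 2.42 in replicate 2. The Aqp2 call rested on 30 and 9 proximal tubule UMIs, of which 1 cell held 10, and was lost in 7 alternatives, with adjusted p from 0.0562 to 0.226. Its fold was 1.64 in replicate 1 and 0.38 in replicate 2. Aqp4 was not called (-0.85 ± 0.84, adjusted p = 0.402). The early nephron read 105 and 104 CPM of the proximal tubule markers.

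Against the loop of Henle, 3 of 5 members were called higher in the proximal tubule (21.7% of all genes tested were). Aqp1, at 0.549 and 1.03 CPM in the loop, was higher by 7.25 ± 0.33 (adjusted p = 7.05e-15), Aqp11 by 2.19 ± 0.19 (1.28e-09) and Aqp3 by 1.71 ± 0.52 (0.0105). The Aqp3 call was lost without doublet removal (adjusted p = 0.0785) and without cells over 50000 UMIs (adjusted p = 0.228), and it turned to -3.93 when clusters replaced gates. Aqp2 (1.24 ± 0.83, adjusted p = 0.2504) and Aqp4 (-2.15 ± 0.99, adjusted p = 0.0854) were not called, and with clusters Aqp2 turned to -5.46. The cluster named for the loop was cluster 21, which also held 39 collecting duct gate cells and 27 intercalated gate cells.

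Aqp1 was in 58.9% and 61.4% of proximal tubule cells, against 2.56% and 0.943% in the collecting duct at a similar depth. After thinning to 5000 UMIs it was in 30.6% and 29.5% of proximal tubule cells, against a mean of 0.43% over both libraries in the collecting duct. The upper 10% of proximal tubule cells by Aqp1 held 57.6% and 62.3% of its UMIs there, with up to 76 and 113 UMIs in a cell. Aqp1 and Aqp11 were found together in 43.8% and 47.6% of proximal tubule cells. The gate's cells fell mainly into 3 clusters, 1 led by mature genes such as Slc34a1 (cluster 7, 234 and 176 cells), 1 by Aadat, Slc7a12 and Slc7a13 (cluster 25, 26 and 27 cells) and 1 by early nephron genes such as Lhx1 and Dll1 (cluster 18, 33 and 25 cells). Aqp1 read 108 and 121 CPM in cluster 7, 108 and 143 CPM in cluster 25 and 42.3 and 47.6 CPM in cluster 18, which was apart from both others. Aqp11 read 58.2 and 63.9 CPM in cluster 7, 34.5 and 46.3 CPM in cluster 25 and 46.6 and 47.6 CPM in cluster 18. Among these 3 clusters it was highest in cluster 7 in both libraries. The gate's 11 cells in cluster 1 had a mean of 59.3 CPM, from 12 UMIs. Aqp3 read 10.7 and 5.81 CPM in cluster 7 and had 3 UMIs or fewer in each library of the other clusters. No test was run on these clusters, which were chosen after the data were seen. Without cells over 50000 UMIs the mean Aqp1 level of the class was 79.3 CPM, against 106 ± 7.11 CPM (SD, n = 2 libraries) with them.

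All 20 genes of a proximal tubule transport list were called higher in the proximal tubule than in the mean of the other classes (31.9% of all genes tested were), with a median log2 fold change of 6.42 against 0.20 over all genes tested. The largest were Slc5a12, a sodium-coupled lactate transporter (9.03, at 39.6 and 40.3 CPM), Miox, an inositol oxygenase (8.47), Pdzk1, a scaffold of apical transporters (8.45, at 579 and 670 CPM), Slc2a2, the GLUT2 glucose transporter (8.33), and Glyat, a glycine acyltransferase (8.07). Against the early nephron all 20 were called higher (30.8% of all genes tested were), with a median of 4.04 against 0.00 over all genes tested. Against the loop of Henle 16 were called higher (21.7% of all genes tested were) and 2 lower (20% were), with a list median of 5.23 against 0.01. Atp1b1, which encodes a sodium pump subunit, was among those called lower (-1.38), and Fxyd2 and Slc9a3 were not called.

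The gate for the thin descending limb, the segment in which AQP1 carries water out of the adult loop, held 5 and 6 cells and was not fitted. It read 208 CPM (145 to 289) and 406 CPM (314 to 515) of Aqp1, above the proximal tubule in both libraries. In each library 1 cell held most of it, 21 of 35 UMIs and 44 of 67 UMIs. The gate read 427 and 1150 CPM of its own 4 markers and 818 and 660 CPM of proximal tubule markers, against 66.9 and 65.7 CPM and 4582 and 4799 CPM in the proximal tubule. An unnamed cluster of 5 and 6 cells led by Slpi, Msln and Upk3b read 92.6 CPM (37.2 to 191) and 303 CPM (188 to 464) of Aqp1, from 7 and 21 UMIs, and was named after its values were seen. In the thin limb gate Aqp2 and Aqp4 had 0 UMIs, which allows up to 21.9 and 22.3 CPM (upper 95% Poisson bound).

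In the endothelium, 2 of 5 members were called higher than in the mean of the other classes (31.3% of all genes tested were) and 1 lower (11.5% were). Aqp1 was higher by 5.74 ± 0.13 (adjusted p = 2.35e-21), with folds of 5.62 in replicate 1 and 7.23 in replicate 2 alone. Aqp11 was called higher by 1.42 ± 0.47 (adjusted p = 0.0178) although its 7.48 and 9.15 CPM were below the arithmetic mean of the other classes (10.2 and 12.6 CPM). Its fold was 1.36 in replicate 1 and 2.35 in replicate 2 alone. The call was lost without the replicate block (adjusted p = 0.0529), with DESeq2's Wald test (0.0553), with a 2-marker gate (0.0639) and at a mitochondrial limit of 20% (0.186). Aqp4 had 1 and 0 endothelial UMIs and was called lower by a log2 fold change of -3.77 ± 0.99 (adjusted p = 0.00293), a test that could not be fitted in 4 alternatives. Aqp2 was not called (-1.08 ± 0.52, adjusted p = 0.104), and was called lower in 3 alternatives, with adjusted p from 0.0142 to 0.0282. The Aqp2 fold was -1.14 in replicate 1 and 0.42 in replicate 2 alone. For Aqp3, with 4 and 0 UMIs, the test could not be fitted, and it was called lower in both alternatives that gave a fit, by DESeq2's Wald test (-3.97, adjusted p = 1.24e-05) and by edgeR without doublet removal (-3.96, adjusted p = 0.00236).

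The endothelial Aqp1 was unevenly spread among vessels. Aqp1 was in 18.3% and 18.4% of endothelial cells, and the upper 10% of cells held 94.4% and 93.8% of the UMIs. Endothelial cells were divided with markers of arteries (among them Sox17, Gja4 and Efnb2), of the capillary plexus (among them Aplnr and Plvap) and of glomerular capillaries (among them Ehd3). Arterial cells (125 and 87) read 661 and 695 CPM of Aqp1, glomerular cells (82 and 43) 35.9 and 69.8 CPM and plexus cells (261 and 202) 21.8 and 4.26 CPM. The 3 groups did not overlap between libraries. Aqp1 was in 50.4% and 59.8% of arterial cells, 26.8% and 30.2% of glomerular cells and 6.90% and 2.97% of plexus cells, at median depths of 7279 and 8097, 8617 and 10621, and 8701 and 9256 UMIs. Even among arterial cells the upper 10% held 81.0% and 71.2% of the Aqp1 UMIs, with up to 272 and 103 in a cell.

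Between arterial and plexus endothelium, fitted over 14397 genes, 2 of 5 members were called higher in arterial cells (7.94% of all genes tested were). Aqp1 was higher by 5.50 ± 0.26 (adjusted p = 2.67e-14), with folds of 4.82 in replicate 1 and 7.23 in replicate 2 alone. Aqp11 read 24.0 and 28.7 CPM in arterial cells and 3.73 and 6.39 CPM in plexus cells, and was higher by 2.35 ± 0.37 (adjusted p = 3.85e-05). The arterial Aqp11 values rested on 33 and 29 UMIs. A cluster of endothelial cells led by Edn1, Gja4 and Sox17, found without the aquaporins, read 860 and 988 CPM of Aqp1 in its 95 and 63 gated cells. The other endothelial clusters read between 8.07 and 30.2 CPM. Aqp2 (-0.01 ± 1.28), Aqp3 (0.15 ± 2.44) and Aqp4 (4.34 ± 3.24) were not called, each from 5 UMIs or fewer in a library. Proximal tubule markers summed to 22.6 and 21.8 CPM in arterial cells and 20.2 and 22.6 CPM in plexus cells, and erythroid markers to 19.6 and 16.8 CPM and 14.9 and 15.3 CPM. Several other lists moved with the arterial gate: early nephron markers were at 218 and 143 CPM in arterial cells and 24.3 and 19.2 CPM in plexus cells, podocyte markers at 135 and 79.2 CPM and 30.8 and 23.4 CPM, and distal tubule markers at 48.8 and 37.6 CPM and 9.64 and 8.95 CPM, while nephron progenitor markers were lower, at 42.9 and 14.8 CPM and 137 and 92.04 CPM. Mural markers were at 421 and 298 CPM in arterial cells and 16.8 and 15.3 CPM in plexus cells. The part of these markers in the arterial values was not tested.

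**Figure D4:**
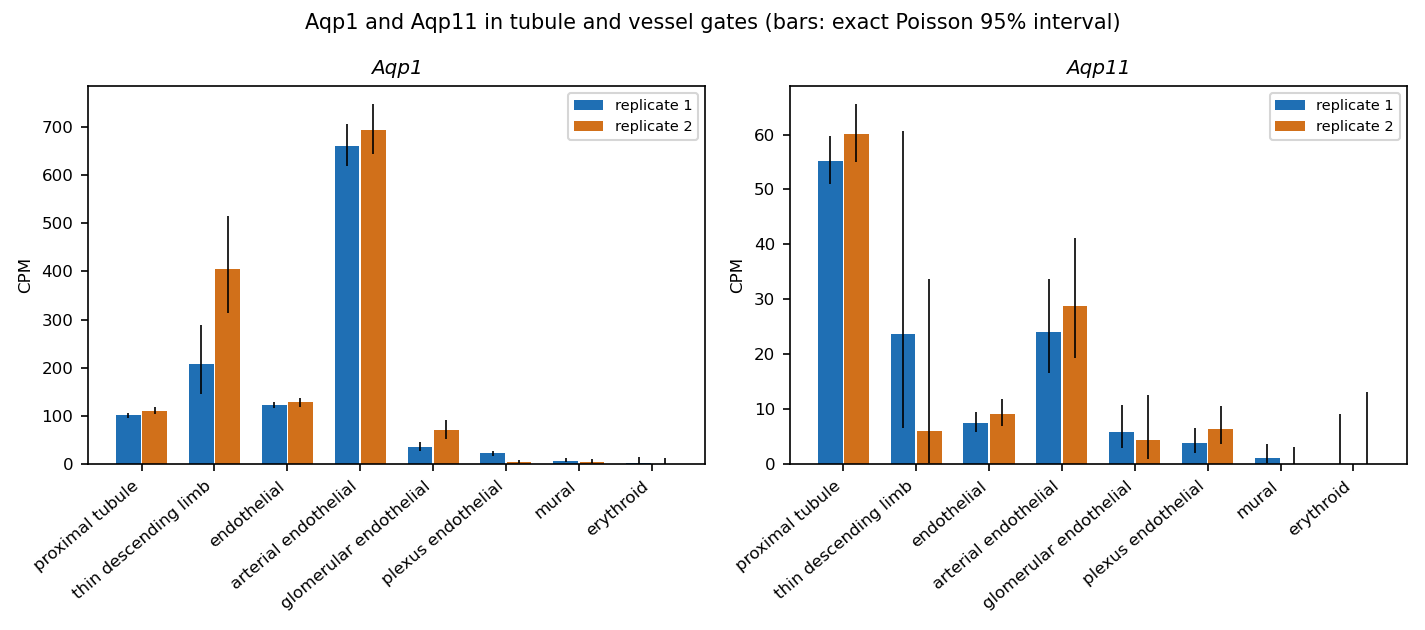
Aqp1 (left) and Aqp11 (right) in tubule, vessel and erythroid gates, as CPM from 0 with exact Poisson 95% intervals, 1 bar per library. Arterial endothelium has the highest Aqp1, 661 and 695 CPM, and proximal tubule the highest Aqp11, 55.2 and 60.1 CPM.

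Aqp11, the endoplasmic reticulum aquaporin, was the most widely spread of the 5. It was highest in the proximal tubule, at 55.2 and 60.1 CPM, apart from the collecting duct at 12.6 and 21.02 CPM. The collecting duct, ureteric tip (13.0 and 18.7 CPM) and loop of Henle (10.99 and 18.2 CPM) overlapped one another, and the early nephron followed at 10.9 and 11.4 CPM. Nephron progenitors read 2.93 and 4.95 CPM, podocytes 2.13 and 2.33 CPM and stroma 1.39 and 2.40 CPM. Aqp11 was in 66.2% and 73.8% of proximal tubule cells, in 25.2% and 22.7% of early nephron cells and in 2.67% and 3.63% of podocytes. At 5000 UMIs per cell these shares were 22.1% and 25.1%, 6.68% and 4.59%, and 1.51% and 0.974%. The proximal tubule held 46.1% and 41.5% of its UMIs, and the early nephron 16.6% and 16.0%.

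In the loop of Henle, 1 member, Aqp11, was called higher than in the mean of the other classes (25% of all genes tested were) and 2 lower (9.48% were). Aqp11 was higher by 2.10 ± 0.40 (adjusted p = 0.000177), with folds of 1.78 in replicate 1 and 3.24 in replicate 2 alone. Aqp1 was called lower by a log2 fold change of -2.42 ± 0.68 (adjusted p = 0.00693) and Aqp2 of -2.05 ± 0.77 (adjusted p = 0.0418), each from 2 to 3 UMIs in a library. From single libraries the fold of Aqp1 was -3.03 in replicate 1 and -0.52 in replicate 2, and that of Aqp2 -2.29 and -0.43. The Aqp1 call was lost without doublet removal (adjusted p = 0.302), and its test could not be fitted at a mitochondrial limit of 20%. The Aqp2 call was lost in 4 alternatives and turned upward in 2, to 0.11 without doublet removal and to 4.38 with clusters. Aqp3 (-0.12 ± 0.86) and Aqp4 (0.22 ± 0.57) were not called, and Aqp3 turned to 5.50 with clusters.

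**Figure D5:**
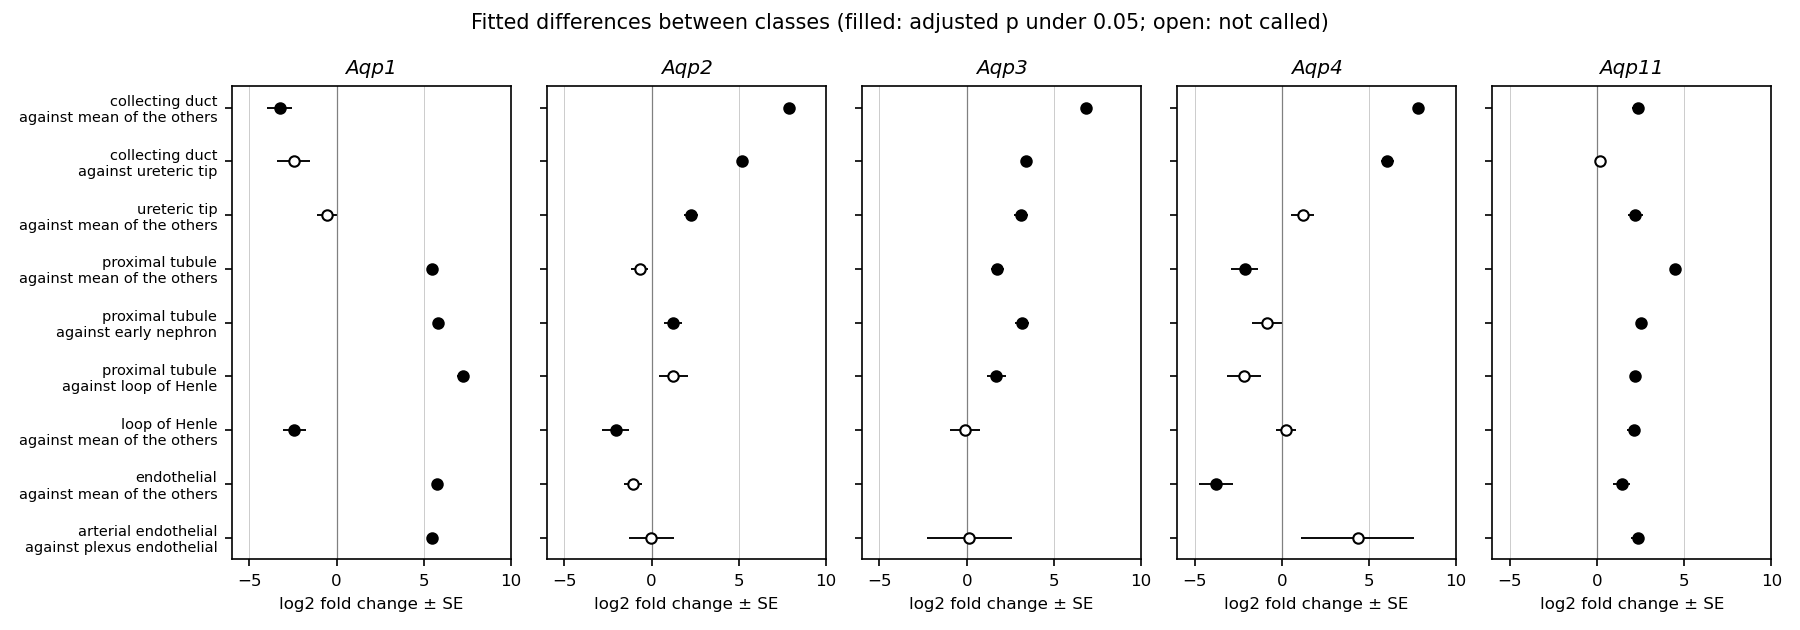
Fitted log2 fold changes (points, with SE as bars) of the 5 aquaporins in 9 comparisons between classes (rows); filled points have an adjusted p under 0.05. Aqp2, Aqp3 and Aqp4 are called higher in the collecting duct against the mean of the others and against the ureteric tip, and Aqp1 in the proximal tubule and endothelial comparisons.

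Red cells carry AQP1 in the adult as the Colton antigen, and their precursors were tested for it. The erythroid gate (47 and 38 cells) had 1 and 0 UMIs of Aqp1, 3 and 0 of Aqp2, 1 and 1 of Aqp3, 2 and 0 of Aqp4 and 0 and 0 of Aqp11. None of the 5 members was called by edgeR (7.25% of all genes tested were, in either direction), and 1 had an unadjusted p under 0.05. DESeq2's Wald test called 3 (Aqp2, Aqp3 and Aqp4), and the share of all genes it called was not taken. At this depth the Aqp1 count allows up to 13.7 and 13.1 CPM (upper 95% Poisson bounds). In the other clusters led by globin genes, Aqp1 had 3 and 0 UMIs in 172 and 148 cells, 1 and 0 in 246 and 134 cells and 1 and 0 in 59 and 74 cells. Of the 11 genes of an erythrocyte membrane list 10 were tested, all but Rhag, and 8 were called higher in the erythroid gate (all but Gypc and Slc14a1; 3.48% of all genes tested were called higher), with a median log2 fold change of 6.73 against -1.77 over all genes tested. The largest were Rhd (13.03, at 73.9 and 67.3 CPM), Epb42 (12.47), Kel (11.01), Ermap (10.38) and Ank1 (7.38). Fitted folds of this size depend on counts near 0 in the other classes. Such genes can pass the low-count filter through the erythroid gate alone, so the count and the median of this list are a description only.

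Among the other aquaporins, Aqp5 and Aqp7 passed the filter. Aqp5, the neighbour of Aqp2, followed the collecting duct with 20.9 and 20.1 CPM, and read 3.98 and 1.29 CPM in the ureteric tip. It was called higher in the collecting duct against the mean of the others (8.55 ± 0.48, adjusted p = 4.39e-10) and against the tip (2.82 ± 0.51, adjusted p = 0.000597). Within the gate it read 25.8 and 23.4 CPM in cluster 15 and 6.43 and 11.1 CPM in cluster 21. Aqp7, a glycerol channel of the proximal straight tubule in the adult, read 10.8 and 7.42 CPM in the proximal tubule and was higher there against the early nephron (4.45 ± 0.36, adjusted p = 2.00e-09). Aqp5 had 0 UMIs in the proximal tubule and was called lower there than in the early nephron (adjusted p = 0.00436). Mip, Aqp6, Aqp8, Aqp9 and Aqp12 did not pass the filter in the fit of 12 classes.

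The genes whose levels ran most like each member were ranked by Pearson's r of log2(CPM + 1) over the 24 sums, 12 classes in each of 2 libraries, among 9901 genes. The classes share libraries and depth, so r is a description only. Guca2a, which encodes guanylin, was nearest to both Aqp2 (r = 0.930) and Aqp4 (0.926), and Rhcg, an ammonia transporter, and Muc20 were in the first 5 of both. Fxyd4 was among the 5 of Aqp2, and Avpr2 and Atp12a, a proton pump, among those of Aqp4. For Aqp3 the nearest was Rnf186 (0.888), and Hkdc1 was shared with Aqp2. For Aqp1 the nearest were St8sia6 (0.894) and Abcg2 (0.883), both highest in the proximal tubule, followed by Gimap9, Gchfr and Csgalnact1, highest in the endothelium. For Aqp11 they were Rph3al (0.934), Gipc2, Ggact, Ccser1 and Slc15a2, a peptide transporter, all highest in the proximal tubule.

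Barcodes with 100 UMIs or fewer, which hold mostly RNA free in the suspension, read 25.8 and 26.3 CPM of Aqp1, 24.996 and 40.4 CPM of Aqp2, 19.9 and 20.5 CPM of Aqp3, 11.6 and 4.98 CPM of Aqp4 and 11.6 and 11.1 CPM of Aqp11. The levels of Aqp2 in the endothelium (1.54 and 1.58 CPM) and of Aqp1 in the collecting duct (0.610 and 0.231 CPM) were below these values. Some levels of members called higher were below them too: Aqp2 in the ureteric tip (22.4 and 3.22 CPM) and the proximal tubule (2.64 and 1.08 CPM), Aqp3 in the proximal tubule (9.08 and 4.79 CPM) and Aqp11 in the endothelium (7.48 and 9.15 CPM). Aqp11 in the loop of Henle (10.99 and 18.2 CPM) was below in replicate 1 and above in replicate 2, and Aqp3 in the tip (29.7 and 5.15 CPM) was above in replicate 1 and below in replicate 2. The part of free RNA in these levels was not tested.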

How the data were processed

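Single-cell RNA was counted in 2 P0 kidney libraries of 1 mutant group. The deposited matrices give, per the file headers, whole-number UMI counts of genes in barcodes, and include barcodes of very few UMIs. Cell Ranger is named with version 4 in the file headers and 6.0.1 in the submitters' processing notes, which also name mm10. The deposited counts were used without correction for free RNA.

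Barcodes with at least 2000 UMIs and at most 10% mitochondrial UMIs were kept. Doublets were scored with Scrublet as in scanpy 1.11.5 (Python 3.11.15), and the highest scores were removed at 0.8% per 1000 cells. Cells were gated by the mean z-score of 19 marker lists without aquaporins (score at least 0.5, margin 0.25, 3 markers detected). These thresholds were set after marker scores, but not aquaporin values, were seen. UMIs were summed per library and class with at least 20 cells in each library. edgeR 4.0.16 (R 4.3.3) tested 12 classes with TMM scaling, filterByExpr and library as a block, because the classes of a library come from the same sample, and the design left 11 residual degrees of freedom. A second fit divided the endothelium. The members and lists were chosen with earlier results of these data known. The text names the members, the other aquaporins, the 5 called genes of largest fold in each list and the 5 genes most like each member. Intervals are exact Poisson or binomial at 95% and cover counting error only. Alternatives were DESeq2 1.42.0 (size factors and Wald test), no low-count filter, no replicate block, clusters in place of gates, other gates, other cell filters and leaving out each library. Simulated counts were used only for the test of the collecting duct against the tip. They did not cover the comparisons with the mean of the other classes.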

Additional observations from a re-analysis of the deposited data

How the results depend on the processing

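Of 124 alternative counts of members called, 116 stayed within 1.5 times the main count. With clusters in place of gates, 5 members differed between proximal tubule and loop of Henle (3 with gates), 2 higher and 3 lower, and 1 was called in the erythroid comparison (0 with gates). DESeq2's Wald test called 3 members there and a gate with 2 markers, chosen after the data were seen, called 2. That gate left 1 call in the endothelium (3 before, with 2 members not fitted). Without doublet removal the loop of Henle had 1 call (3 before). At a mitochondrial limit of 5% only 3 members were tested and 2 were called in the proximal tubule against the mean of the others and against the early nephron (4 before in each). The collecting duct, tip and loop comparisons were not run at that limit, which left too few cells, and the collecting duct could be set against the distal tubule only at 20%. The share of all genes called was taken only for the main fit and for that distal tubule comparison. Counts of members under the other settings therefore cannot be set against such a share.

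Of 587 alternative values of single members, 526 kept their direction and side of the threshold, 23 lost the call, 19 gained one and 19 changed sign. Those that changed sign with a call in either setting were, with clusters, Aqp2 (4.38) and Aqp3 (5.50) in the loop of Henle against the mean of the others, and Aqp2 (-5.46) and Aqp3 (-3.93) in the proximal tubule against the loop, and, without doublet removal, Aqp2 in the loop (0.11). The others had no call in either setting. They were Aqp2 between arterial and plexus endothelium (from -0.01 to 0.034 with DESeq2's size factors, 0.072 with its Wald test, 0.42 at a minimum of 5000 UMIs, 0.032 without cells over 50000 UMIs and 0.10 at a mitochondrial limit of 20%), Aqp3 in the loop (0.16 with the erythroid class left out, 0.24 without doublet removal and 0.45 without cells over 50000 UMIs), Aqp4 in the loop (-0.80 at the 20% limit), Aqp1 in the tip (0.14 at the 20% limit), Aqp2 in the proximal tubule against the mean (0.35 at a limit of 5%) and against the loop (-0.88 without doublet removal), and, without cells over 50000 UMIs, Aqp11 between collecting duct and tip (-0.17) and Aqp4 between proximal tubule and early nephron (0.19). The cause was not tested. The cluster named for the loop also held 39 collecting duct and 27 intercalated gate cells, and the gated loop cells in it read 0.884 and 1.10 CPM of Aqp2. No called member changed sign in a fit of a single library. Members not called were left out of that check, and some of them did change sign. Aqp4 in the tip was -0.56 in replicate 1 alone, and Aqp2 in the endothelium was 0.42 in replicate 2 alone.

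The replicate block joins the classes of a library, which come from the same sample. Without the replicate block 5 members were called in the collecting duct against the mean of the others, 3 against the tip, 3 in the tip, 4 in the proximal tubule against the mean, 3 against the early nephron, 3 against the loop, 2 in the loop, 2 in the endothelium, 2 in arterial against plexus endothelium and 0 in the erythroid gate. The calls it ended were Aqp11 in the endothelium (adjusted p = 0.0529), Aqp2 in the loop (0.0689) and Aqp2 in the proximal tubule against the early nephron (0.0756), and no other call changed. The share of all genes called without the block was not taken, so these counts have no background beside them.

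The lower calls of Aqp1, Aqp2 and Aqp4 rested on 0 to 3 UMIs in a library. Cells over 50000 UMIs, 767 in all, held 36.4% of the kept UMIs.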
